A study of Mus musculus with 11 samples.

Results

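The genes described here had a mean level at least 2.5 times that of CSF3R-only cells where mutant CEBPA was expressed before mutant CSF3R, and a mean near that of CSF3R-only cells in the other order. They were chosen by a rule on the levels themselves: in CPM (a gene's counts as parts of 1e6 of its library's total), protein-coding genes with a CEBPA-first mean of at least 1, at least 2.5 times the CSF3R-only mean, and a CSF3R-first mean between 0.67 and 1.4 times the CSF3R-only mean. The rule selected 71 genes of 21793 protein-coding genes and 51912 genes in all. Because it used the means of all 3 groups, the levels of these genes are given as a description, and counts of calls among them are set by the choice and support nothing. The samples were lineage-negative bone marrow cells of C57BL/6 strain, carrying Cre-ERT2 from the Rosa26 locus and transduced with a pair of retroviral vectors. The vector marked by GFP is always on, and the vector marked by dsRed is switched on by Cre. CEBPA-first cells (n = 4) had CEBPA V314VW in the first vector and CSF3R T618I in the second, CSF3R-first cells (n = 3) had them the other way around, and CSF3R-only cells (n = 4) had CSF3R T618I in the first vector and an empty second vector. Every group was sorted for both markers and kept for 48 h without cytokines and with 4-hydroxytamoxifen, which activates Cre. By design all groups then express mutant CSF3R, and the CSF3R-only group lacks mutant CEBPA. Because the second vector is switched on only in this culture, CSF3R-first cells had mutant CEBPA for less time than CEBPA-first cells. Likewise, CEBPA-first cells had mutant CSF3R for less time than the other groups. Order and time of exposure cannot be told apart here. During transduction all cells were cultured with WEHI-conditioned medium, IL-3, IL-6 and SCF. Cells with mutant CEBPA alone and cells without an oncogene are not analysed here, both oncogenes were expressed from retroviral vectors and not from their own loci, and nothing in the sources says whether replicates came from separate animals, so the spread between samples may be technical.

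CEBPA is the transcription factor that drives myeloid progenitors toward granulocytes. Its C-terminal mutations alter the basic region and leucine zipper with which it binds DNA. CSF3R is the receptor for granulocyte colony-stimulating factor and signals through JAK kinases and STAT factors, and its membrane-proximal mutation keeps it active without ligand. Both are mutated together in a subset of acute myeloid leukemia, in which the order of the events is a question that this comparison addresses.

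Total counts per library ranged from 47905747 to 72268346, so that 1 CPM stood for 47.9 to 72.3 counts. The limit behind a count of 0 is 3 counts, or from 0.0415 to 0.0626 CPM by library, and covers counting error only. The hematopoietic markers Ptprc (609 ± 75.6 CPM in CEBPA-first) and Spi1 (356 ± 12.3 CPM) were present in every group. Neutrophil lineage markers were measured in the lineage-negative gate too: the 14 had summed levels of 12489 to 14201 CPM in CEBPA-first, compared with 28627 to 33049 in CSF3R-only and 19611 to 28385 in CSF3R-first. The list moved both ways, with 10 called lower in CEBPA-first (19% of all tested genes were), such as Ltf (552 ± 152, 72.2 ± 32.4 and 12.01 ± 2.88 CPM; here and from here on, mean ± SD for the groups CSF3R-only, n = 4, then CSF3R-first, n = 3, then CEBPA-first, n = 4), and the primary granule genes Elane (486 ± 58.0, 802 ± 47.2 and 1289 ± 142 CPM) and Prtn3 (431 ± 42.4, 1005 ± 52.3 and 1348 ± 63.1 CPM) called higher (8.07% of all tested genes were). Beside the same 19%, the 7 megakaryocyte markers were all called lower in CEBPA-first (115 to 169 CPM together, compared with 850 to 1205 in CSF3R-only and 329 to 558 in CSF3R-first), as were 6 of 7 erythroid markers (38.2 to 56.9, compared with 172 to 291 and 85.2 to 317) and 4 of 5 tested eosinophil markers (30.9 to 41.4, compared with 228 to 350 and 62.7 to 133). The part of any of these in the levels given here was not tested. In bulk RNA, fewer cells of a type and less RNA per cell cannot be told apart. CSF3R-first replicate A stood apart from the other 2 CSF3R-first libraries in these genes: it was the lowest of the 3 in 54 of the 71 members (76.1%), and in 70.95% of the 451 rising genes that lie above the band and have counts in CSF3R-only. Scaling by TMM (edgeR's trimmed mean of M values) in place of total counts lowered the CEBPA-first to CSF3R-only difference by 0.13 on the log2 scale and the CSF3R-first to CSF3R-only difference by 0.08, so folds on CPM are that much higher than fitted ones.

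Of the 525 protein-coding genes that reached the level and the fold in CEBPA-first, 71 (13.5%) had a CSF3R-first mean within the band, 454 lay above it and 0 lay below it. The ratio of CEBPA-first to CSF3R-only had a median of 3.15 among the members and ran from 2.51 to 25.3. The ratio of CSF3R-first to CSF3R-only had a median of 1.17 and ran from 0.728 to 1.4, and it was above 1 in 53 of 71 members. At 2.5-fold, Pparg (2.51), Wnt16 (2.52) and Etv4 (2.54) were just inside, and Lrrn3 (2.496), Clec4b1 (2.49) and Ankrd6 (2.48) just outside. At the top of the band Myo18b (1.39997), Trim30c (1.39) and Lrrc1 (1.38) were inside, and Plod2, Nostrin and Ptpn13 (each 1.41) outside. The lowest CSF3R-first ratios were those of Pparg (0.728), Slc26a3 (0.739) and Nrep (0.751). At the level limit Sema5a (1.09 CPM), Arhgap28 (1.13) and Cd163 (1.14) were inside, and Ctla4 (0.998), BC147527 (0.996) and Car3 (0.993) outside. A further 5 genes of other kinds met the same numbers and were left out as not protein-coding: Gm4759, 1700001L05Rik, Gm9855, BC064078 and Trav17.

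**Figure D1:**
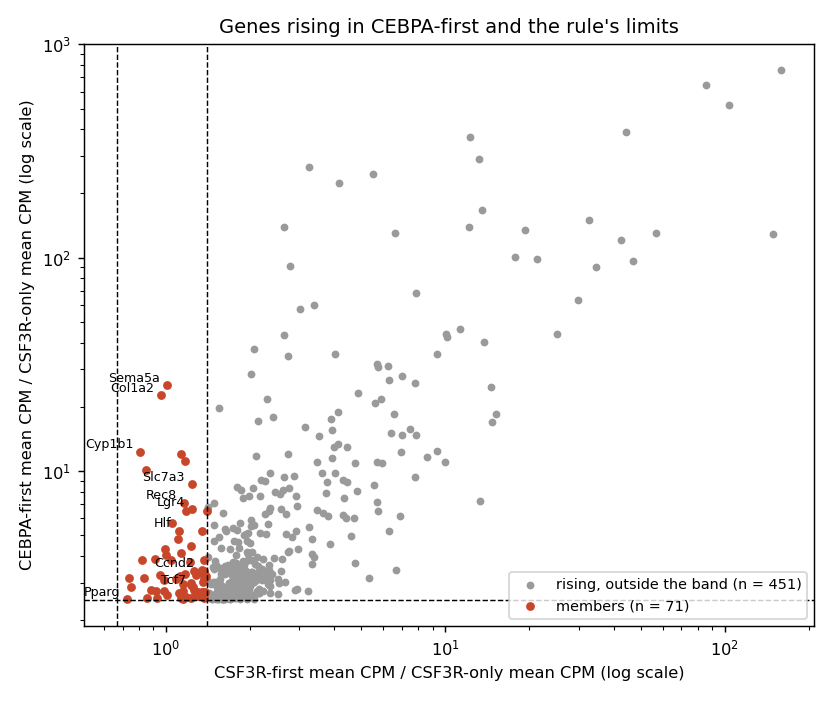
Ratio of the CSF3R-first mean to the CSF3R-only mean (horizontal, log scale) against the ratio of the CEBPA-first mean to the CSF3R-only mean (vertical, log scale) for the protein-coding genes that rose at least 2.5-fold in CEBPA-first and have counts in CSF3R-only. Dashed lines mark the limits of 0.67, 1.4 and 2.5; the 71 members (red) lie between the vertical lines and the 451 others (grey) to the right of them.

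The separation of the groups in these genes follows from how they were chosen, and the counts in this paragraph are given for description only, with nothing to be read from their distance to the share of all genes. All 71 members passed edgeR's filter on low counts and its quasi-likelihood test between CEBPA-first and CSF3R-only (adjusted p under 0.05 and a log2 fold change of at least 1), where 8.07% of the 15703 genes tested were called higher. Against CSF3R-first, 63 of 71 were called higher, with 2.57% of tested genes called higher. Between CSF3R-first and CSF3R-only, 6 of 71 had an adjusted p under 0.05 at any size of change, with 42.7% of tested genes so. In 69 of 71 members every CEBPA-first sample was above all 7 other samples, a pattern found in 28.5% of tested genes. The exceptions were P4ha2 and Wnt16. CSF3R-first and CSF3R-only samples overlapped in 65 members, and in 57.2% of tested genes. In the other 6 (Dr1, Tifab, Maob, Slc39a10, Selenom and Arfgef3) all 3 CSF3R-first samples were above all 4 CSF3R-only samples, although their means were within the band; this was so in 24.8% of tested genes.

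**Figure D2:**
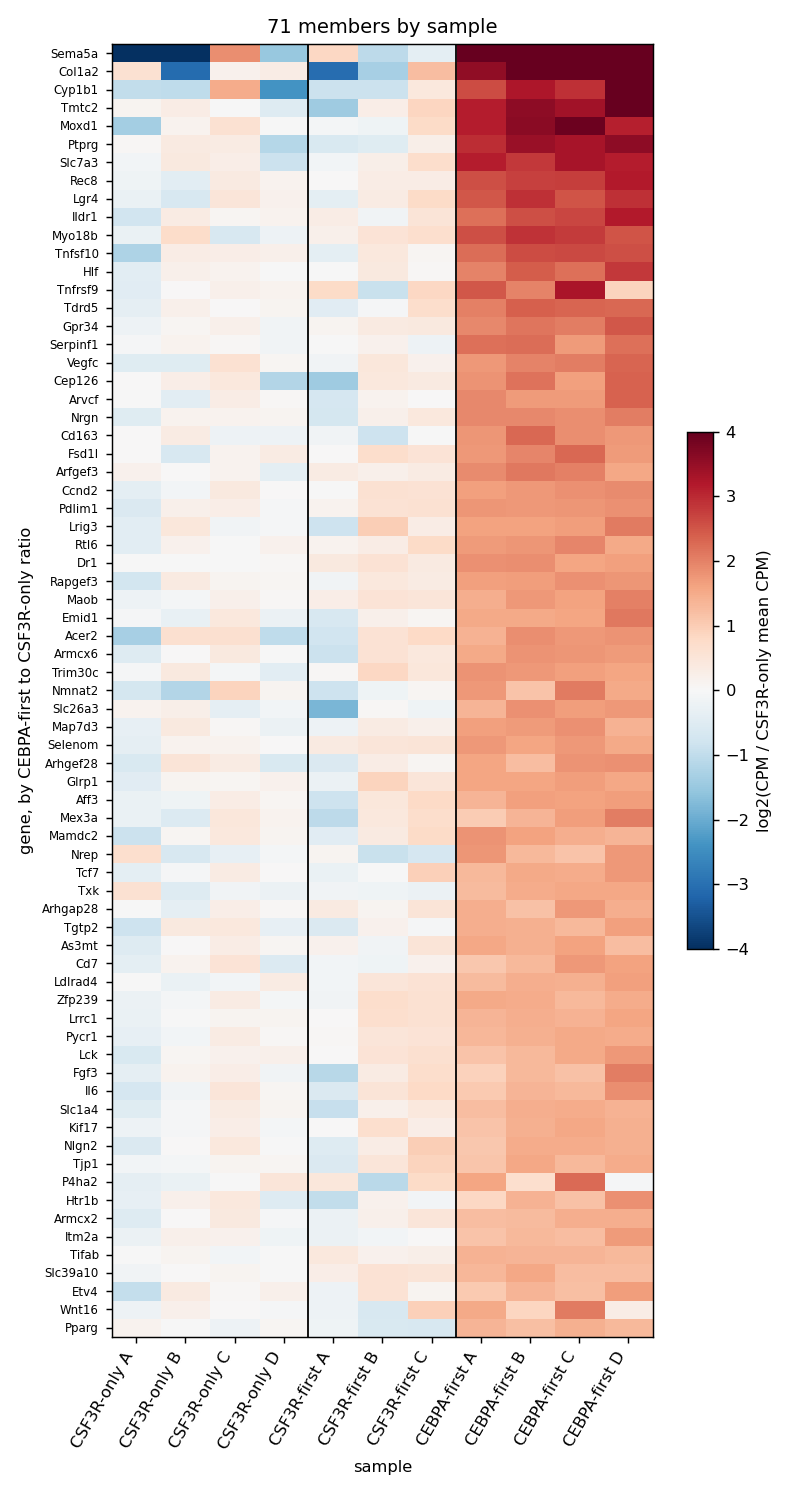
The 71 members (rows, ordered by CEBPA-first to CSF3R-only ratio) in the 11 samples (columns), coloured by log2 of CPM over the CSF3R-only mean CPM and clipped at -4 and 4. The 4 CEBPA-first columns are red in nearly every row, with CEBPA-first D at the CSF3R-only level in P4ha2, while CSF3R-first A is bluer than CSF3R-first B and C in most rows.

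The band hid differences among the CSF3R-first libraries. The median member stood at 0.9003 times the CSF3R-only mean in CSF3R-first A, at 1.22 times in B and at 1.39 times in C. In 34 members CSF3R-first C was above 1.4 times the CSF3R-only mean, in 20 members B was, and in 2 members A was. In 15 members all 3 CSF3R-first samples were within the band: Hlf, Gpr34, Tifab, Tnfsf10, Rec8, Itm2a, Armcx2, Tgtp2, Arfgef3, Serpinf1, Rapgef3, Vegfc, Cd7, Map7d3 and Txk. Without CSF3R-first A, 32 of the 71 left the band upward or downward, among them Ccnd2, Maob, Il6, Aff3, Tcf7, Lgr4, Lck, Fgf3, Tjp1, Slc39a10, Slc7a3, Pycr1, Sema5a, Pparg and Tmtc2, and the median ratio of CSF3R-first to CSF3R-only rose to 1.30. A set of 22 members met the rule whichever of the 11 samples was left out, among them Hlf, Gpr34, Nrgn, Tnfsf10, Rec8, Txk, Vegfc, Ptprg, Cd163 and Arhgef28. Among CSF3R-only samples, A was the lowest in 41 members (57.7%) and C the highest in 35 (49.3%). In the 451 rising genes above the band with counts in CSF3R-only, the shares were 64.3% and 49.7%.

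**Figure D3:**
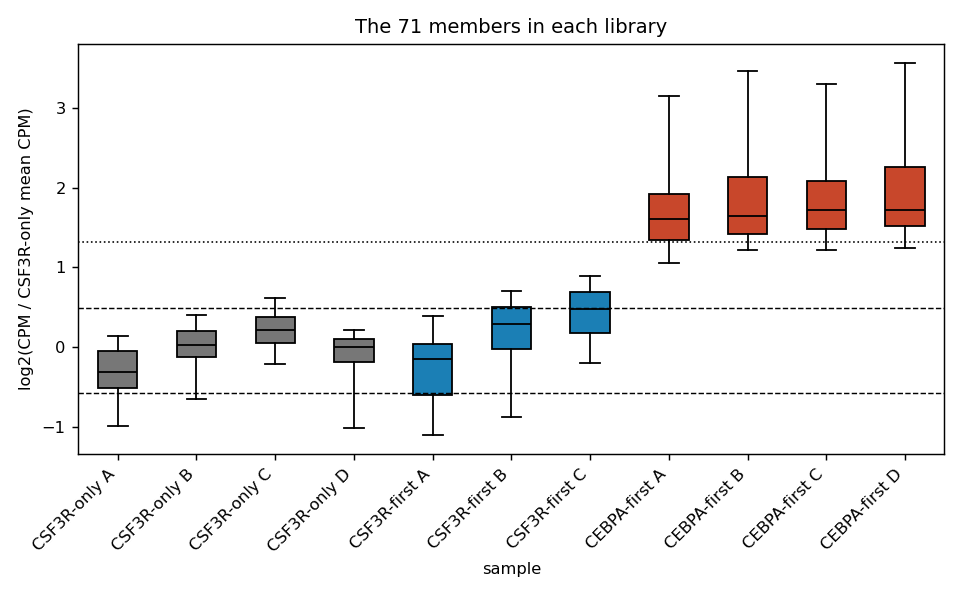
Distribution of the 71 members in each of the 11 libraries as log2 of CPM over the CSF3R-only mean CPM. Boxes span the quartiles with the median as a line, whiskers run from the 5th to the 95th percentile, dashed lines mark 0.67 and 1.4 and the dotted line 2.5; the CSF3R-first medians are 0.9003, 1.22 and 1.39 in A, B and C.

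The transcriptional regulators among the members were led, after the general repressor Dr1, by Aff3, Hlf and Tcf7. For Hlf, the CSF3R-only samples A to D held 2.08, 3.21, 3.05 and 2.78 CPM, the CSF3R-first samples A to C 2.77, 3.63 and 2.88, and the CEBPA-first samples A to D 10.96, 14.9, 12.7 and 19.9. Its 4 CEBPA-first samples were all above the 7 others, with D the highest. Hlf encodes a PAR bZIP factor of immature hematopoietic cells. Tcf7 had 10.2, 12.01, 11.6 and 14.0 CPM in CEBPA-first A to D, compared with 3.21, 4.01, 5.24 and 4.26 in CSF3R-only A to D and 3.45, 4.13 and 8.15 in CSF3R-first A to C. Tcf7 encodes TCF-1, the Wnt-responsive factor that starts the T cell program, and its highest CSF3R-first value (8.15) lay nearer CEBPA-first than the other 2 did. The level of Aff3 was 8.36, 8.92, 12.5 and 10.7 CPM in CSF3R-only A to D, 5.69, 14.0 and 17.6 in CSF3R-first A to C, and 26.2, 31.6, 31.2 and 31.9 in CEBPA-first A to D. AFF3 is a subunit of super elongation complexes and a fusion partner in lymphoid leukemia. CSF3R-first A was here the lowest of all 11 samples. Dr1 was at 106, 107, 106 and 111 CPM in CSF3R-only A to D, at 141, 160.2 and 139 in CSF3R-first A to C, and at 381, 388, 324 and 334 in CEBPA-first A to D. DR1 binds TBP and represses initiation, and its CSF3R-first samples were all above its CSF3R-only samples. Per kilobase of exon, Dr1 was at 103 CPM in CEBPA-first, Tcf7 at 4.56, Aff3 at 4.54 and Hlf at 2.19. The remaining regulators were lower. Pparg, the nuclear receptor of fat cells and macrophages, was at 2.03 ± 0.208, 1.48 ± 0.281 and 5.08 ± 0.297 CPM, the member with the lowest CSF3R-first ratio. Etv4, an ETS factor, was at 0.739 ± 0.249, 0.849 ± 0.237 and 1.88 ± 0.372 CPM, and Zfp239, a zinc finger protein, at 2.03 ± 0.350, 2.75 ± 0.794 and 5.55 ± 0.365 CPM.

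The proximal promoter of Hlf is shown because Hlf was the leading transcription factor that met the rule whichever sample was left out. The window is 250 bases before to 50 after the start in RefSeq (GRCm38.p6), chr11:90390868-90391167, minus strand, 5′ to 3′, with a match to the cyclic AMP response element (CRE, TGACGTCA) in capitals at position -9 from the start.
Hlf: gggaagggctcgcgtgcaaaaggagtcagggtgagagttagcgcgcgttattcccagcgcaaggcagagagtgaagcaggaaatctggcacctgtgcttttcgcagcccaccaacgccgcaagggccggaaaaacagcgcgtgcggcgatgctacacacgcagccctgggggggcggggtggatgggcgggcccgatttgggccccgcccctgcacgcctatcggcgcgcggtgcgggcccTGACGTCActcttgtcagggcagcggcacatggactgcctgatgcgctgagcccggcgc

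Relatives of these factors were measured beside them. Of the 3 other genes of the PAR bZIP list, Dbp was at 1.58 ± 0.0974, 1.75 ± 0.106 and 1.96 ± 0.228 CPM, with a log2 fold change of 0.17 ± 0.13 (SE, edgeR adjusted p = 0.27), and Tef was at 13.3 ± 0.885, 11.1 ± 0.858 and 13.0 ± 1.21 CPM (-0.16 ± 0.09, adjusted p = 0.14). Nfil3, the repressor that binds the same sites, was at 162 ± 4.599, 161 ± 28.3 and 102 ± 17.3 CPM, with a log2 fold change of -0.81 ± 0.13 (edgeR adjusted p = 0.000102), under the fold used for a call. In the AFF family, Aff2 rose in both orders and was at 1.65 ± 0.194, 4.28 ± 0.224 and 5.60 ± 0.0746 CPM (log2 fold change 1.62 in CEBPA-first, edgeR adjusted p = 9.0e-08, and 1.28 in CSF3R-first, adjusted p = 1.7e-05). Aff1 at 81.6 ± 7.76, 87.3 ± 8.45 and 105 ± 3.80 CPM and Aff4 at 75.4 ± 4.59, 79.8 ± 9.25 and 99.5 ± 3.79 CPM were not called. Of TCF-1's relatives, given as levels only and picked after the members were known, Lef1 was at 0 ± 0, 0.0109 ± 0.0189 and 0.0624 ± 0.0532 CPM, Tcf7l1 at 0.0698 ± 0.0398, 0.148 ± 0.0446 and 0.207 ± 0.0468 CPM and Tcf7l2 at 28.3 ± 2.82, 15.8 ± 1.59 and 7.71 ± 1.01 CPM, so that Tcf7l2 had the opposite order. Axin2, a common Wnt target, was at 0.896 ± 0.311, 0.769 ± 0.334 and 0.421 ± 0.0669 CPM. Among relatives of Pparg, Ppard was at 7.52 ± 0.582, 7.60 ± 1.46 and 4.65 ± 0.230 CPM and its partner Rxra at 13.6 ± 1.51, 7.81 ± 1.44 and 3.27 ± 0.722 CPM. Etv5 was at 22.4 ± 1.59, 15.2 ± 3.36 and 16.4 ± 1.85 CPM beside Etv4, and Etv1 at 7.32 ± 1.07, 3.77 ± 1.72 and 0.702 ± 0.331 CPM.

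Hlf is also the only member among 23 stem cell genes. Of the other 22, 6 were called higher and 6 lower by edgeR in CEBPA-first against CSF3R-only, where 8.07% and 19% of all tested genes were called higher and lower. Between CSF3R-first and CSF3R-only, 1 was called higher and 3 lower, where 2.13% and 4.53% of tested genes were. Mecom, a stem cell zinc finger factor, rose in both orders (0.162 ± 0.0362, 3.44 ± 1.18 and 16.05 ± 1.60 CPM). Prdm16, its close relative, was the stem cell gene nearest to the members. For Prdm16, the CSF3R-only samples A to D held 1.01, 0.675, 0.729 and 0.819 CPM, the CSF3R-first samples A to C 0.891, 0.710 and 0.999, and the CEBPA-first samples A to D 1.72, 2.16, 1.79 and 1.91. Its log2 fold change was 1.09 ± 0.18 in CEBPA-first (edgeR adjusted p = 0.00013) and 0.02 ± 0.21 in CSF3R-first (adjusted p = 0.94), and its fold on CPM was under the 2.5 of the rule. Cd34 and Ly6a, also on the list, fell in CEBPA-first (log2 fold change -2.31 and -2.67).

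Ccnd2, which encodes cyclin D2, the partner of CDK4 and CDK6 at the start of the cell cycle, had the third highest CEBPA-first mean of the members. Ccnd2 had 76.8, 82.6, 87.2 and 92.6 CPM in CEBPA-first A to D, compared with 18.8, 23.1, 32.2 and 24.9 in CSF3R-only A to D and 24.5, 38.2 and 37.1 in CSF3R-first A to C. The groups of CEBPA-first and other samples did not overlap, and CSF3R-first B and C were above every CSF3R-only sample. Without CSF3R-first A, Ccnd2 was outside the band. The other D cyclins had the opposite order: Ccnd3 was at 679.5 ± 14.0, 591 ± 22.3 and 487 ± 19.6 CPM, with a log2 fold change of -0.61 (edgeR adjusted p = 1.1e-06), and Ccnd1 fell and was at 0.658 ± 0.220, 0.451 ± 0.0380 and 0.333 ± 0.0844 CPM (-1.11, adjusted p = 0.0028), a call lost without CSF3R-only C or CEBPA-first A (log2 fold change -0.87 and -0.97). Per kilobase of exon in CEBPA-first, Ccnd2 was at 9.01 CPM. Other cell cycle genes rose in CEBPA-first with CSF3R-first means above the band. Ccne1 (38.7 ± 4.71, 75.2 ± 4.53 and 87.4 ± 2.65 CPM), Ccne2 (52.6 ± 3.81, 101 ± 7.88 and 129.7 ± 9.64 CPM), Cdk4 (209 ± 22.6, 333 ± 44.1 and 484 ± 26.1 CPM) and Cdk6 (115 ± 21.1, 218 ± 52.7 and 339 ± 38.6 CPM) were the 4 of 10 other genes of the cyclin list that were called higher, with 1 called lower, beside 8.07% and 19% of all tested genes. Ccne1 was under the fold used for a call without CSF3R-only A (log2 fold change 0.98).

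Genes with germline or RNA-binding roles were also among the members. The level of Rec8 was 1.01, 0.862, 1.46 and 1.26 CPM in CSF3R-only A to D, 1.16, 1.42 and 1.41 in CSF3R-first A to C, and 6.91, 7.62, 7.73 and 10.4 in CEBPA-first A to D. Rec8 encodes the meiotic kleisin subunit of cohesin, and it met the rule whichever sample was left out. Its somatic counterpart Rad21 was at 148 ± 11.7, 210.1 ± 25.2 and 234 ± 9.44 CPM, and its meiotic partner Stag3 at 3.48 ± 0.318, 4.87 ± 0.623 and 4.33 ± 0.457 CPM. Tdrd5, a Tudor domain protein of the piRNA pathway, was at 0.963 ± 0.154, 1.06 ± 0.443 and 4.64 ± 0.501 CPM, while Piwil2 of the same pathway was at 23.1 ± 1.60, 14.1 ± 2.87 and 6.09 ± 1.44 CPM, in the opposite order, and the germline helicase gene Ddx4 was at 0.151 ± 0.0776, 0.856 ± 0.149 and 1.08 ± 0.261 CPM. Mex3a, an RNA-binding ubiquitin ligase, was at 0.603 ± 0.183, 0.696 ± 0.361 and 1.79 ± 0.562 CPM.

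**Figure D4:**
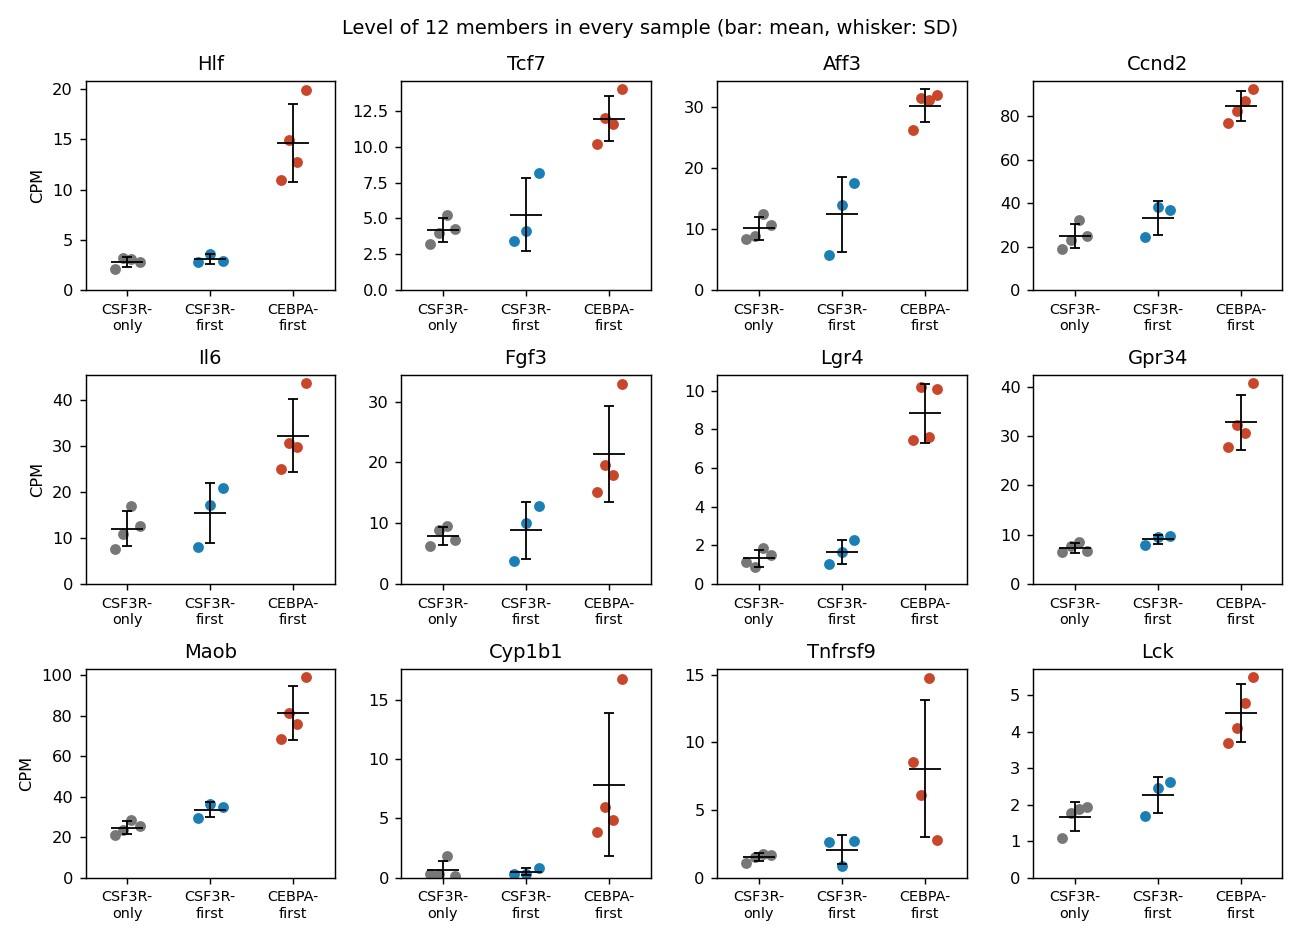
CPM of 12 members in every sample (points), with the group mean as a bar and the SD as a whisker. CEBPA-first points are above all others in each panel, including Tnfrsf9, where CEBPA-first D (2.82) lies just above the highest CSF3R-first sample (2.73).

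The members Tcf7 and Cd7 are on the early T and innate lymphoid list and Lck on the T cell list, and Txk, Itm2a and Tnfrsf9, also known from T cells, were placed beside them after the members were known. Lck was at 1.09, 1.76, 1.89 and 1.94 CPM in CSF3R-only A to D, at 1.70, 2.46 and 2.62 in CSF3R-first A to C, and at 3.70, 4.09, 4.78 and 5.51 in CEBPA-first A to D. Lck encodes the Src family kinase that signals from the T cell receptor, and CSF3R-first B and C lay above the CSF3R-only samples. For Cd7, the CSF3R-only samples A to D held 0.586, 0.843, 1.12 and 0.531 CPM, the CSF3R-first samples A to C 0.716, 0.689 and 0.868, and the CEBPA-first samples A to D 1.63, 1.90, 2.55 and 2.35. Cd7 encodes an early T and NK cell surface protein that is also found on some myeloid leukemia cells. Txk, a Tec family kinase, was at 0.538 ± 0.200, 0.474 ± 0.0138 and 1.49 ± 0.132 CPM, with CSF3R-first samples within 0.458 to 0.484 CPM. Itm2a, a membrane protein of thymocyte activation, was at 5.25 ± 0.805, 4.89 ± 0.416 and 13.4 ± 2.42 CPM. Tnfrsf9 had 8.59, 6.11, 14.8 and 2.82 CPM in CEBPA-first A to D, compared with 1.11, 1.56, 1.77 and 1.70 in CSF3R-only A to D and 2.61, 0.835 and 2.73 in CSF3R-first A to C. Tnfrsf9 encodes the costimulatory receptor 4-1BB, and its CEBPA-first samples spread from 2.82 to 14.8. Its ligand Tnfsf9 was at 30.3 ± 1.18, 27.4 ± 7.05 and 17.6 ± 4.32 CPM.

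Most defining T cell markers were at or near 0 beside these genes. Of 10 T cell markers, Cd3e, Cd8a, Cd8b1 and Trbc2 had 0 counts in all 11 libraries, Cd3g and Zap70 had at most 4 counts in any library, Cd2 and Cd4 had at most 8 and 21 counts (Cd2 at 0.0311 ± 0.0384, 0.0263 ± 0.0294 and 0.0752 ± 0.0489 CPM, Cd4 at 0.181 ± 0.143, 0.0263 ± 0.0294 and 0.00438 ± 0.00877 CPM), and Cd3d, with at most 16 counts, fell (0.230 ± 0.0760 CPM in CSF3R-only and 0.0494 ± 0.0209 in CEBPA-first). The 10 markers had summed levels of 3.79 to 5.73 CPM in CEBPA-first, compared with 1.52 to 2.44 in CSF3R-only and 1.94 to 2.82 in CSF3R-first, of which Lck itself was the largest part. Of the 12 other early T and innate lymphoid genes that could be tested, 3 were called higher (Gata3, Il2rb and Ctla4) and 2 lower (Il7r and Id2) in CEBPA-first against CSF3R-only, beside 8.07% and 19% of all tested genes. Ctla4, an inhibitory T cell receptor, was just under the level limit of the rule. The level of Ctla4 was 0.0404, 0.0750, 0.0394 and 0 CPM in CSF3R-only A to D, 0.0387, 0.0417 and 0 in CSF3R-first A to C, and 1.23, 0.574, 1.57 and 0.623 in CEBPA-first A to D. Its edgeR log2 fold change was 4.54 ± 0.62 in CEBPA-first (adjusted p = 2.0e-05). Gata3, the factor of T helper and innate lymphoid type 2 cells, was at 0.201 ± 0.0501, 0.157 ± 0.0763 and 0.824 ± 0.371 CPM (1.88 ± 0.36, adjusted p = 0.00039). Il2rb was low in every group, with at most 21 counts in a library (0.0720 ± 0.0994, 0.0218 ± 0.0378 and 0.320 ± 0.0987 CPM), and its call was lost in 4 of the fits that left out a sample. Il7r, the receptor of early lymphoid cells, fell in CEBPA-first (39.4 ± 8.33, 25.02 ± 1.47 and 8.04 ± 0.653 CPM), as did Id2 (349.8 ± 18.8, 245 ± 50.6 and 87.6 ± 18.3 CPM), the inhibitor required for innate lymphoid cells. Of the B cell and NK cell markers, Dntt, the terminal transferase of early lymphoid cells (0.0339 ± 0.0287, 0.459 ± 0.380 and 5.68 ± 0.875 CPM), Igll1, a surrogate light chain (0.0210 ± 0.0187, 0.101 ± 0.0636 and 0.318 ± 0.186 CPM), and Klrb1c, the NK receptor NK1.1 (0.0739 ± 0.0840, 0.160 ± 0.0780 and 0.674 ± 0.164 CPM), were called higher by edgeR in CEBPA-first, and Cd79a fell (0.586 ± 0.182, 0.255 ± 0.0814 and 0.133 ± 0.0552 CPM), while Pax5 and Rag1 had at most 1 count in a library and Ncr1 0. The 10 B cell markers together were at 11.0146 to 14.1 CPM in CEBPA-first, compared with 3.49 to 4.41 in CSF3R-only and 3.83 to 4.83 in CSF3R-first, most of it Dntt and Cd79b (3.26 ± 0.563, 3.44 ± 0.513 and 6.32 ± 0.417 CPM), and the 7 NK cell markers at 0.747 to 1.12, compared with 0.318 to 0.843 and 0.368 to 0.4801. The part of such cells in the levels of the members was not tested.

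**Figure D5:**
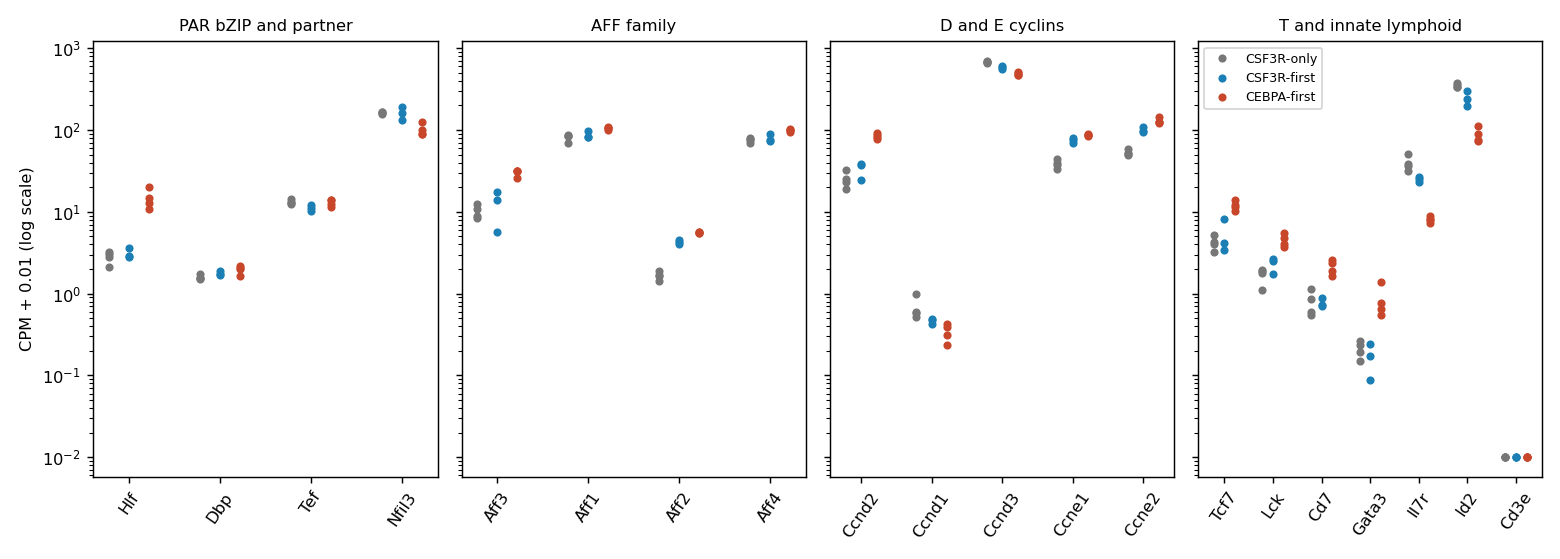
Members (first gene of each panel, and Lck and Cd7 in the last) beside genes of the same list, as CPM + 0.01 on a log scale in every sample. Hlf, Aff3, Ccnd2 and Tcf7 are highest in CEBPA-first, while Nfil3, Ccnd3, Il7r and Id2 are lowest there, Ccne1, Ccne2 and Aff2 are up in CSF3R-first too, and Cd3e is at 0 in all samples.

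The secreted factors were led by Il6 and Fgf3, neither of which met the rule on TMM scaling or without CSF3R-first A. Il6 was at 7.60, 10.9, 16.9 and 12.6 CPM in CSF3R-only A to D, at 8.11, 17.1 and 20.8 in CSF3R-first A to C, and at 25.002, 30.6, 29.7 and 43.6 in CEBPA-first A to D. Il6 encodes the cytokine interleukin-6, which had been added as a protein to the culture during transduction but not, per the study's methods, to the medium of the 48 h before RNA was taken. CSF3R-first B and C reached 17.1 and 20.8 CPM, above all CSF3R-only samples, and CEBPA-first D was the highest sample. Both receptor subunits were expressed: Il6ra was at 108 ± 9.41, 101 ± 13.7 and 84.4 ± 7.43 CPM and Il6st, the shared signalling subunit gp130, at 92.5 ± 4.78, 168 ± 6.09 and 290.4 ± 23.1 CPM. For Fgf3, the CSF3R-only samples A to D held 6.24, 8.83, 9.52 and 7.17 CPM, the CSF3R-first samples A to C 3.70, 9.98 and 12.8, and the CEBPA-first samples A to D 15.2, 19.5, 17.9 and 32.9. Fgf3 encodes a fibroblast growth factor of embryonic tissues, with CEBPA-first D again the highest. Its neighbour Fgf4 had at most a trace (0.00502 CPM in CEBPA-first, and 0 in the other groups), and the receptors Fgfr1 and Fgfr2 were at 2.68 ± 0.875, 1.70 ± 0.464 and 0.802 ± 0.212 CPM and 0 ± 0, 0 ± 0 and 0.00937 ± 0.0109 CPM. Tnfsf10 had 8.82, 11.47, 11.7 and 11.3 CPM in CEBPA-first A to D, compared with 0.808, 2.32, 2.27 and 2.15 in CSF3R-only A to D and 1.45, 2.505 and 1.998 in CSF3R-first A to C. Tnfsf10 encodes the death ligand TRAIL, whose mouse receptor Tnfrsf10b was at 5.17 ± 0.592, 7.42 ± 0.203 and 6.84 ± 0.0611 CPM. The level of Vegfc was 0.545, 0.544, 1.16 and 0.819 CPM in CSF3R-only A to D, 0.697, 1.04 and 0.868 in CSF3R-first A to C, and 2.58, 3.06, 3.15 and 3.85 in CEBPA-first A to D. Vegfc, the lymphatic growth factor, had its receptor Flt4 at 0.194 ± 0.0568, 0.120 ± 0.0651 and 0.0864 ± 0.0278 CPM. Serpinf1, which encodes the antiangiogenic factor PEDF, had nearly the same level in both CSF3R groups (1.09 ± 0.0867, 1.09 ± 0.141 and 4.71 ± 0.745 CPM), and Wnt16 was at 0.487 ± 0.0575, 0.563 ± 0.340 and 1.23 ± 0.636 CPM.

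The promoters of Il6 and Vegfc are shown with that of the receptor gene Lgr4, because each holds a match, on either strand, to an open form of the C/EBP motif, TTGCNNAA, in capitals (on the strand printed, the Il6 match is the reverse complement of that form). All are plus-strand windows of 250 bases before to 50 after the RefSeq start in GRCm38.p6, 5′ to 3′, at chr5:30012864-30013163 (Il6), chr8:54077282-54077581 (Vegfc) and chr2:109917397-109917696 (Lgr4). The matches begin at position -128, -63 and -47 from the start.
Il6: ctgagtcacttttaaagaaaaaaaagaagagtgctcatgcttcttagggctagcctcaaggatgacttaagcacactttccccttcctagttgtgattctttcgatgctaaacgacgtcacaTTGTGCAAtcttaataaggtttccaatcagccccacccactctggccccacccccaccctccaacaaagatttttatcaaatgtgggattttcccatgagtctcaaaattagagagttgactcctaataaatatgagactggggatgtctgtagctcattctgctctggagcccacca
Vegfc: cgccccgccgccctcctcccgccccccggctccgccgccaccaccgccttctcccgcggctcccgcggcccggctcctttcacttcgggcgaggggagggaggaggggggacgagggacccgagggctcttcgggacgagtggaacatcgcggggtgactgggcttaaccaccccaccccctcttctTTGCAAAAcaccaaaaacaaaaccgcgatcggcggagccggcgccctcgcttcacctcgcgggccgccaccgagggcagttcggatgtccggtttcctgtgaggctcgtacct
Lgr4: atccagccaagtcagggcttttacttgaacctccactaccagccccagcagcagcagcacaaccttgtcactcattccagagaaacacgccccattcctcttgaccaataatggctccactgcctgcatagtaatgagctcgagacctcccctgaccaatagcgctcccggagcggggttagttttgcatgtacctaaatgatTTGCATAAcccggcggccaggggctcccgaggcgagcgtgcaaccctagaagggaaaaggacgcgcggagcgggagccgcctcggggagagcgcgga

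The collagen gene Col1a2 and the semaphorin gene Sema5a had the highest ratios, from low CSF3R-only levels. Col1a2 was at 0.242, 0.0187, 0.177 and 0.197 CPM in CSF3R-only A to D, at 0.0194, 0.0626 and 0.377 in CSF3R-first A to C, and at 1.88, 3.36, 3.62 and 5.56 in CEBPA-first A to D. Its summed counts were 882 in CEBPA-first, compared with 35 in CSF3R-only and 27 in CSF3R-first, a ratio of summed CPM of 23.4 between CEBPA-first and CSF3R-only (95% exact interval 16.7 to 33.8, for counting error only). Of the 27 CSF3R-first counts, 23 were in replicate C. Col1a2 met the rule in 10 of 11 rounds that each left out 1 sample. Col1a2 encodes the alpha 2 chain of type I collagen. The alpha 1 chain was lower in CEBPA-first: Col1a1 was at 0.798 ± 0.266, 0.757 ± 0.133 and 0.402 ± 0.152 CPM (log2 fold change -1.13, edgeR adjusted p = 0.0062, under the fold used for a call without CSF3R-only A or CEBPA-first D). Of the 9 stromal markers, Col3a1, Lum and Cxcl12 had 0 counts in every library and Dcn at most 2, while Pdgfrb rose in CEBPA-first (5.34 ± 0.639, 9.04 ± 1.98 and 17.8 ± 0.793 CPM). The 9 together were at 19.2 to 24.5 CPM in CEBPA-first, compared with 5.89 to 7.27 in CSF3R-only and 7.59 to 11.7 in CSF3R-first, most of it Pdgfrb. For Sema5a, the CSF3R-only samples A to D held 0, 0, 0.158 and 0.0152 CPM, the CSF3R-first samples A to C 0.0774, 0.0209 and 0.0327, and the CEBPA-first samples A to D 0.736, 1.13, 0.924 and 1.58. The product of Sema5a is a transmembrane protein, and with 9 counts in CSF3R-only, 8 of them in replicate C, its ratio of summed CPM was 27.5 (95% exact interval 14.3 to 60.9, for counting error only). Without CSF3R-only C a single count was left and the ratio was 191 (33.9 to 7553), so that its size rests on that library. All 3 CSF3R-first samples of Sema5a were above CSF3R-only A, B and D, so that its place in the band rests on CSF3R-only C too. Sema5a met the rule in 8 of 11 rounds that each left out 1 sample. Emid1 was at 1.14 ± 0.276, 1.09 ± 0.309 and 3.73 ± 0.828 CPM and Mamdc2 at 1.5001 ± 0.486, 1.85 ± 0.730 and 4.41 ± 0.586 CPM.

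The receptors and surface proteins were led by Gpr34, Itm2a (above) and Lgr4. Gpr34 had 27.7, 32.3, 30.6 and 40.7 CPM in CEBPA-first A to D, compared with 6.42, 7.72, 8.49 and 6.66 in CSF3R-only A to D and 7.96, 9.48 and 9.68 in CSF3R-first A to C. Gpr34 encodes a lysophosphatidylserine receptor, known from microglia and mast cells. Of 7 mast cell and basophil markers, 1 was called higher and 3 lower in CEBPA-first, beside 8.07% and 19% of all tested genes. Together they were at 1105 to 1570 CPM in CEBPA-first, compared with 1387 to 2233 in CSF3R-only and 900 to 1177 in CSF3R-first. The gene Gpr82 next to it on chromosome X had the opposite order (9.16 ± 0.649, 6.13 ± 1.66 and 1.58 ± 0.411 CPM). The level of Lgr4 was 1.11, 0.862, 1.87 and 1.49 CPM in CSF3R-only A to D, 1.01, 1.67 and 2.28 in CSF3R-first A to C, and 7.43, 10.2, 7.59 and 10.1 in CEBPA-first A to D. Lgr4 encodes an R-spondin receptor that strengthens Wnt signalling. Its relatives Lgr5 and Lgr6 were at 0.0296 ± 0.0385, 0.00546 ± 0.00945 and 0.0316 ± 0.0212 CPM and 0.0227 ± 0.0455, 0.0263 ± 0.0325 and 0.0262 ± 0.0333 CPM, and Znrf3, the ligase that R-spondins inhibit, was at 2.11 ± 0.244, 3.43 ± 1.05 and 6.97 ± 0.582 CPM. Ptprg, a receptor phosphatase, was at 0.236 ± 0.0904, 0.200 ± 0.0681 and 2.39 ± 0.412 CPM, from 50 counts in all CSF3R-only samples together. Htr1b, a serotonin receptor, was at 0.881 ± 0.262, 0.755 ± 0.284 and 2.25 ± 0.662 CPM, Ildr1 at 0.207 ± 0.0604, 0.245 ± 0.0538 and 1.35 ± 0.391 CPM, Lrig3 at 0.885 ± 0.226, 1.11 ± 0.615 and 3.00 ± 0.514 CPM, Ldlrad4 at 2.29 ± 0.417, 2.92 ± 0.711 and 6.25 ± 0.669 CPM and Nlgn2 at 0.973 ± 0.267, 1.26 ± 0.622 and 2.53 ± 0.325 CPM. Cd163 was at 0.303, 0.375, 0.256 and 0.258 CPM in CSF3R-only A to D, at 0.271, 0.167 and 0.295 in CSF3R-first A to C, and at 1.02, 1.48, 1.08 and 0.996 in CEBPA-first A to D. Cd163 encodes the macrophage scavenger receptor for hemoglobin. Of the 9 other monocyte and macrophage markers, 8 were called lower in CEBPA-first (19% of all tested genes), and the 10 together were at 964 to 1273 CPM in CEBPA-first, compared with 2768 to 3376 in CSF3R-only and 1636 to 2588 in CSF3R-first, so that their sum was lowest where Cd163 was highest.

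Among signalling proteins inside the cell, Tifab and Nrgn were the most abundant. For Tifab, the CSF3R-only samples A to D held 65.7, 71.6, 62.2 and 66.4 CPM, the CSF3R-first samples A to C 89.9, 75.7 and 79.0, and the CEBPA-first samples A to D 174, 171, 169.5 and 164. TIFAB inhibits signalling through TRAF6, and its CSF3R-first samples were all above its CSF3R-only samples. Its partner Tifa was at 66.2 ± 5.10, 48.6 ± 7.50 and 46.6 ± 4.66 CPM and Traf6 at 62.6 ± 4.84, 72.0 ± 5.90 and 80.9 ± 6.75 CPM. Nrgn had 35.5, 35.7, 34.1 and 38.4 CPM in CEBPA-first A to D, compared with 6.71, 10.3, 10.3 and 10.1 in CSF3R-only A to D and 5.79, 10.9 and 12.6 in CSF3R-first A to C. Nrgn encodes neurogranin, a calmodulin-binding protein best known from neurons, and its CEBPA-first samples were within 34.1 to 38.4. Exchange factors and their counterparts were low: Rapgef3 (EPAC1), which senses cyclic AMP, was at 1.19 ± 0.343, 1.39 ± 0.270 and 3.92 ± 0.259 CPM, Arhgef28 at 0.584 ± 0.238, 0.573 ± 0.167 and 1.81 ± 0.322 CPM, Arhgap28 at 0.410 ± 0.0717, 0.517 ± 0.0757 and 1.13 ± 0.182 CPM and Arfgef3 at 1.81 ± 0.307, 2.20 ± 0.101 and 6.79 ± 1.08 CPM. Tgtp2, an interferon-induced GTPase, was at 2.57 ± 0.987, 2.36 ± 0.587 and 7.07 ± 0.699 CPM, and its whole transcript is nearly identical to stretches of Tgtp1 and Gm12185, from which its reads may not be told apart.

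The transporters and enzymes covered several unrelated routes. The level of Maob was 21.3, 23.4, 28.4 and 25.7 CPM in CSF3R-only A to D, 29.4, 36.2 and 34.9 in CSF3R-first A to C, and 68.2, 81.5, 75.9 and 99.2 in CEBPA-first A to D. Maob encodes monoamine oxidase B, and all 3 CSF3R-first samples were above the CSF3R-only samples. Maoa, its neighbour and relative, was at 5.26 ± 1.002, 4.95 ± 0.815 and 7.96 ± 0.391 CPM. Slc39a10 was at 19.4, 21.7, 23.3 and 21.5 CPM in CSF3R-only A to D, at 25.8, 32.0 and 30.4 in CSF3R-first A to C, and at 54.2, 62.4, 51.0 and 50.9 in CEBPA-first A to D. Slc39a10 encodes a zinc importer, again with every CSF3R-first sample above every CSF3R-only sample. Amino acid transport was represented by Slc1a4 (ASCT1, 6.199 ± 1.39, 6.28 ± 2.65 and 16.3 ± 1.19 CPM) and Slc7a3 (CAT3, 0.609 ± 0.209, 0.757 ± 0.222 and 5.27 ± 0.661 CPM), and proline synthesis by Pycr1 (3.75 ± 0.700, 4.87 ± 0.875 and 10.2 ± 0.585 CPM). Of relatives picked after the members were known, Slc1a5 was at 148 ± 13.8, 212 ± 35.8 and 285 ± 17.0 CPM, Slc7a1 at 38.8 ± 5.38, 74.6 ± 16.6 and 119 ± 9.55 CPM and Aldh18a1 at 103 ± 13.0, 149 ± 31.0 and 231 ± 14.8 CPM, each with a CSF3R-first mean between the other groups, while Slc7a2 was highest in CSF3R-first (3.80 ± 0.335, 7.38 ± 5.33 and 3.38 ± 0.696 CPM). Slc26a3, an anion exchanger, was at 0.681 ± 0.121, 0.503 ± 0.273 and 2.15 ± 0.296 CPM. For Cyp1b1, the CSF3R-only samples A to D held 0.323, 0.319, 1.79 and 0.121 CPM, the CSF3R-first samples A to C 0.349, 0.355 and 0.851, and the CEBPA-first samples A to D 3.87, 5.95, 4.84 and 16.8. Cyp1b1, a cytochrome P450 induced through the aryl hydrocarbon receptor, was the most uneven member in CEBPA-first, with D at 16.8. All 3 of its CSF3R-first samples were above CSF3R-only A, B and D, so that its place in the band rests on CSF3R-only C. Cyp1b1 met the rule in 8 of 11 rounds that each left out 1 sample. Cyp1a1 was at 0.0263 ± 0.0206, 0.142 ± 0.0353 and 0.894 ± 0.844 CPM, the receptor gene Ahr at 25.1 ± 1.45, 23.2 ± 4.47 and 48.8 ± 3.82 CPM and its repressor Ahrr at 47.6 ± 2.91, 30.0 ± 6.54 and 34.8 ± 4.07 CPM. As3mt (3.96 ± 0.873, 4.56 ± 1.04 and 10.9 ± 1.21 CPM), Selenom (4.25 ± 0.643, 5.84 ± 0.344 and 13.3 ± 0.964 CPM), Moxd1 (0.309 ± 0.145, 0.362 ± 0.141 and 3.46 ± 0.940 CPM), Tmtc2 (0.260 ± 0.0579, 0.295 ± 0.190 and 3.11 ± 0.882 CPM), Nmnat2 (0.760 ± 0.484, 0.632 ± 0.191 and 2.40 ± 0.651 CPM) and Acer2 (0.458 ± 0.293, 0.587 ± 0.280 and 1.49 ± 0.195 CPM) completed the enzymes beside P4ha2.

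The purine synthesis and folate lists held no member. In CEBPA-first against CSF3R-only, where 8.07% of all tested genes were called higher and 19% lower, 7 of 14 purine genes were called higher (median log2 fold change 0.97), and 9 of 15 tested folate genes higher and 3 lower (median 1.07). The median of all tested genes was -0.00446. In CSF3R-first against CSF3R-only the medians of the purine and folate genes were 0.49 and 0.53, with 1 folate gene called in each direction (2.13% of all tested genes were called higher and 4.53% lower) and a median of -0.0218 over all tested genes. Of the 9 EGF ligands and receptors that could be tested, also without a member, 4 were called higher and 1 lower in CEBPA-first, read against the same 8.07% and 19%. Btc, the ligand betacellulin, was within the band in CSF3R-first but under the level limit (0.177 ± 0.146, 0.183 ± 0.126 and 0.785 ± 0.153 CPM, log2 fold change 2.03 ± 0.44, edgeR adjusted p = 0.0011, and 0.02 ± 0.53 in CSF3R-first). Of the 5 imprinted genes that could be tested, without a member, 1 (Meg3, 0.906 ± 0.178, 6.22 ± 0.889 and 4.12 ± 0.594 CPM) was called higher in CEBPA-first, beside 8.07% of all tested genes. In CSF3R-first 2 were called higher, Meg3 and Dlk1 (1.48 ± 0.526, 5.07 ± 0.970 and 1.57 ± 0.183 CPM), beside 2.13%.

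Cytoskeletal and junction proteins formed a group of 8. Tjp1 had 20.3, 27.3, 23.1 and 26.2 CPM in CEBPA-first A to D, compared with 8.65, 8.85, 10.0 and 9.84 in CSF3R-only A to D and 6.27, 13.1 and 17.3 in CSF3R-first A to C. Tjp1 encodes ZO-1, the tight junction scaffold, with CSF3R-first A below and B and C above every CSF3R-only sample. Arvcf, a catenin of the p120 family, was at 1.26 ± 0.247, 1.15 ± 0.312 and 4.89 ± 1.11 CPM, Lrrc1, a polarity scaffold, at 3.87 ± 0.464, 5.34 ± 1.22 and 10.5 ± 0.682 CPM, and Pdlim1, a PDZ and LIM domain adaptor of actin fibres, at 7.06 ± 1.71, 9.70 ± 1.60 and 24.1 ± 0.648 CPM. Myo18b was at 0.433 ± 0.192, 0.606 ± 0.0938 and 2.81 ± 0.362 CPM, Kif17, a kinesin, at 0.749 ± 0.111, 0.949 ± 0.221 and 1.96 ± 0.220 CPM, Map7d3 at 0.531 ± 0.121, 0.580 ± 0.104 and 1.67 ± 0.210 CPM and Cep126 at 0.619 ± 0.245, 0.618 ± 0.335 and 2.52 ± 0.589 CPM. The desmosome and junction list held no member: 2 of 6 tested genes were called higher and 3 lower in CEBPA-first (8.07% and 19% of all tested genes), and Dsp, the desmoplakin gene, was within the band in CSF3R-first but under the level limit (0.187 ± 0.0688, 0.235 ± 0.0716 and 0.616 ± 0.147 CPM, log2 fold change 1.58 ± 0.32, edgeR adjusted p = 0.00062).

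Within CEBPA-first the members varied in different ways. The median coefficient of variation was 15.8%, against 23.0% in CSF3R-only and 27.8% in CSF3R-first. Replicate D was the highest CEBPA-first sample in 31 members (43.7%), among them Hlf, Il6, Fgf3, Cyp1b1, Gpr34, Rec8 and Maob, and replicate A the lowest in 39 (54.9%). In the 451 rising genes above the band with counts in CSF3R-only, the shares were 38.4% and 21.1%. Tnfrsf9, P4ha2 and Wnt16 had another order. The level of P4ha2 was 0.646, 0.693, 0.828 and 1.15 CPM in CSF3R-only A to D, 1.14, 0.397 and 1.41 in CSF3R-first A to C, and 2.47, 1.32, 3.98 and 0.803 in CEBPA-first A to D. P4ha2 encodes a collagen prolyl hydroxylase. Wnt16 was at 0.424, 0.562, 0.493 and 0.470 CPM in CSF3R-only A to D, at 0.426, 0.313 and 0.9497 in CSF3R-first A to C, and at 1.39, 0.887, 2.05 and 0.595 in CEBPA-first A to D. In these 3 genes CEBPA-first C was the highest and D the lowest sample, and among CSF3R-first samples B was the lowest. CEBPA-first B and D lay within the range of the other groups in P4ha2 and Wnt16. P4ha1, of the same family as P4ha2, and the partner gene P4hb were at 126 ± 6.03, 129 ± 16.1 and 133 ± 13.6 CPM and 1708 ± 84.3, 2234 ± 23.9 and 2652 ± 176 CPM.

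Members were spread over the genome, with 12 on chromosome 11 (16.9%, against 8.55% of tested protein-coding genes), 7 on chromosome X (9.86%, against 3.15%), 6 on chromosome 6 and 1 on chromosome 2. In no case was a member the nearest protein-coding neighbour of another. The closest were Armcx6 (chrX:134748461-134751417) and Armcx2 (chrX:134804145-134809221) in GRCm38, 52728 bases apart, at 0.987 ± 0.243, 1.104 ± 0.493 and 3.20 ± 0.270 CPM and 4.55 ± 1.16, 5.14 ± 1.23 and 11.6 ± 0.928 CPM, and on chromosome 11 Pycr1 and Cd7, 392978 bases apart. Of the 141 nearest protein-coding neighbours, 101 were tested; 13 (12.9%) were called higher in CEBPA-first against CSF3R-only and 13 (12.9%) lower, beside 8.07% and 19% of all tested genes. Their median log2 fold change was 0.37, beside 0.04 for all tested protein-coding genes. The neighbours called higher included Ipo4, 5 bases from Rec8, and Endou beside Rapgef3. Reads of overlapping genes may be shared, since the sources do not state whether counting used strand. The exons of 57 members lay wholly outside other genes. Ldlrad4 had only 47.9% of its exon bases outside others, with Fam210a overlapping it, which rose in CEBPA-first too (group means of 23.4, 39.9 and 55.8 CPM in the same order). Htr1b had 82.0% and Cd7 89.2%. A stretch nearly identical to a transcript of another gene covered more than 10% of the longest transcript in 5 members: Tgtp2 (100%), Ldlrad4, Armcx6, Htr1b and Cd7.

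The 5 members with no group above were Rtl6 (2.98 ± 0.555, 3.98 ± 0.903 and 9.98 ± 1.23 CPM), Glrp1 (1.76 ± 0.316, 2.40 ± 0.864 and 5.30 ± 0.178 CPM), Trim30c (1.12 ± 0.268, 1.55 ± 0.421 and 3.62 ± 0.230 CPM), Fsd1l (0.499 ± 0.130, 0.685 ± 0.162 and 1.91 ± 0.369 CPM) and Nrep (0.465 ± 0.197, 0.350 ± 0.135 and 1.33 ± 0.289 CPM). Among them Nrep had one of the lowest CSF3R-first ratios and Trim30c one of the highest.

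A RefSeq promoter window was matched by symbol for 61 of the 71 members, and the other 10 are Ccnd2, Etv4, Ldlrad4, Cd7, Slc7a3, Mamdc2, Maob, Gpr34, Nrep and Myo18b. The RefSeq start lay within 100 bases of the GENCODE start in 41 of the 61, and in 7778 of 10198 tested protein-coding genes. The other windows may not lie at the start of the counted gene. Motifs were searched on both strands of the 300-base windows, and their shares are a description only. The palindrome TTGCGCAA was in 0 of 61 member windows and in 0.284% of windows of tested protein-coding genes. The open form TTGCNNAA, which contains it, was in 9 of 61 (14.8%), beside 8.38% of tested genes. Of the 353 windows of the other rising genes, whose CSF3R-first mean was above the band, 7.93% held it. On the strand of the gene alone it was in 5 of 61 (8.20%), and no such share was counted for other genes. On either strand it was in Il6, Vegfc, Lgr4, Fgf3, Pycr1, Pdlim1, Tmtc2, Kif17 and Fsd1l. The GATA form AGATAA was also in 9 of 61 (14.8%, beside 6.74% and 5.38%), while the other GATA form TGATAA was in 3.28% (beside 4.25% and 5.38%). The STAT form TTCNNNGAA was in 11.48% (beside 6.89% and 7.93%), the CRE in Hlf and Kif17 (3.28%, beside 3.18%), AP-1 TGANTCA in 8.20% (5.09%) and TTNCGNAA in 1.64% (3.79%). Common letters were near their share in tested genes: the E-box CANNTG in 62.3% (63.3%), ETS GGAA in 95.1% (95.7%), MYB AACNG in 73.8% (78.4%), CCAAT in 42.6% (39.0%), GGGCGG in 57.4% (63.4%) and TATAAA in 6.56% (7.24%). The PAR bZIP palindrome TTACGTAA and the E2F form TTTCGCGC were in 0 of 61 (0.147% and 0.618% of tested genes), and TTACNTAA was in 1.64% (1.44%). Median GC content was 60.3%, with 60.7% in tested genes, and a CpG ratio of observed to expected of at least 0.6 was found in 55.7% of member windows, beside 70.4% of tested genes and 69.4% of the other rising genes.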

How the data were processed

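RNA of 11 lineage-negative marrow samples in 3 groups was measured by RNA-seq from a low-input SMARTer kit. The values are counts of reads per gene, deposited by the authors without normalization. Per their methods reads were trimmed with Trimmomatic and aligned with STAR to mm10 (the GRCm38 build), while the counting tool, its annotation and its use of strand are not given in the sources used here. CPM were counts divided by the library total. Gene type and position came from GENCODE M21, and promoter windows from RefSeq (GRCm38.p6), the start nearest that of GENCODE.

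Members were chosen by the rule given above. The members and lists were chosen with earlier results of these data known. For genes outside the rule, edgeR 4.0.16 in R 4.3.3 (TMM, filterByExpr, 1 quasi-likelihood fit over the 3 groups with no covariate) gave log2 fold changes and p-values with Benjamini-Hochberg adjustment over 15703 genes. A call needed an adjusted p under 0.05 and a log2 fold change of at least 1. The procedure was tested on simulated data first. DESeq2 1.42.0 was an alternative. Near-identical transcripts were found with BLAST 2.17.0 (97% over at least 100 bases). Members named were the 12 highest, the 12 with the largest ratio at 5 CPM or more, those in a list or at a threshold, neighbours, and transcription factors, receptors and ligands; other members are named for completeness after their values were seen. Alternatives were other scalings, filters, limits of the rule, a replicate block and leaving out each sample. Some genes and 1 list are not reported here.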

Additional observations from a re-analysis of the deposited data

Results flagged for a closer look

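Each group of 4 samples was examined for 1 sample far from the rest, by Dixon's gap over range, in the 71 members. Of 142 such groups 11 stood out, where chance gives about 1 in 20, or 7.1. In CSF3R-only, replicate A was low in Tnfsf10 (0.808 CPM, others 2.15 to 2.32), Nrgn (6.71, others 10.1 to 10.3) and Glrp1 (1.29, others 1.87 to 1.99). CSF3R-only C was high in Cyp1b1 (1.79, others 0.121 to 0.323) and Sema5a (0.158, others 0 to 0.0152). In CEBPA-first, replicate D was high in Cyp1b1 (16.8, others 3.87 to 5.95), Emid1 (4.97, others 3.28 to 3.37) and Lrig3 (3.76, others 2.70 to 2.83). CEBPA-first A was low in Aff3 (26.2, others 31.2 to 31.9) and Tnfsf10 (8.82, others 11.3 to 11.7), and CEBPA-first C in Serpinf1 (3.60, others 5.01 to 5.19). In Aff3, Tnfsf10, Serpinf1 and Cyp1b1 these CEBPA-first samples were still above every sample of the other groups.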

How the results depend on the processing

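The number of members depended on the limits of the rule. It was 71, and 34 with a CEBPA-first mean of at least 5 CPM, 211 and 41 at 2-fold and 3-fold, 43 with a narrower band, and 15 with every CSF3R-first sample in the band. TMM scaling gave 59 members, 50 of them shared, and DESeq2 size factors 60, of them 55 shared. Members that did not meet the rule on TMM scaling included Il6, Fgf3, Lck, Cd7, Tifab, Itm2a, Pparg, Tjp1, Slc39a10, Slc1a4 and Pycr1. Leaving out 1 sample gave 42 to 106, with 42 (39 shared) without CSF3R-first A, 106 without B and 86 without C. Genes called by edgeR numbered 4244 between CEBPA-first and CSF3R-only, 2016 between the orders, and 1045 between CSF3R-first and CSF3R-only, and leaving out 1 sample gave 3893 to 4339, 1723 to 2191 and 819 to 1435. Adjusted p alone gave 11314, 7578 and 6703. With at least 10 counts in every sample, fewer genes were tested and 1219 and 566 were called in the last 2 comparisons. Replicate letters are shared between groups, but the correlations of same-letter samples ran from -0.107 to 0.362, and the letters were not taken as pairs. A replicate block gave 4279, 2033 and 1218 calls. Of single genes outside the rule, 670 values kept direction and side of the threshold and 9 lost the call, all on leaving out 1 sample (Ccnd1, Ccne1, Il2rb and Col1a1). Motif shares on the strand of the gene alone were 50.8% (MYB), 6.56% (AGATAA), 78.7% (ETS), 24.6% (CCAAT), 37.7% (GGGCGG) and, for TTGCNNAA, 8.20% in place of 14.8%, a search of 1 strand in place of both. Depth limits the ratios of Sema5a, Col1a2, Ptprg, Ildr1 and Tmtc2, with 9 to 56 counts in all CSF3R-only samples together. Leaving out each CSF3R-only sample from these ratios was chosen after seeing the data, and moved that of Sema5a alone by over 1.5 times (20.8 to 191).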
